A study of Rattus norvegicus with 10 samples.

Results

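The genes described are 10 members of autophagy and of the mTOR kinase pathway: Ulk1, Becn1, Atg5, Atg7, Map1lc3a, Map1lc3b, Sqstm1, Tfeb, Mtor and Rptor. They were chosen by name, and all 10 were found among the 17168 gene symbols of the study's tables and passed the filter on low counts, as did 11791 genes in all. The samples were the left hippocampi of 10 female TgF344-AD rats, each taken at 11 months of age. Untreated animals (n = 5) ate ordinary rodent chow, and RG2833 animals (n = 5) ate chow with 750 mg of RG2833 per kg for 6 months from the age of 5 months, with a food dye used to tell the chows apart. RG2833 is a small-molecule inhibitor of the histone deacetylases HDAC1 and HDAC3. Animals of both groups were of this same transgenic line, a rat model of Alzheimer's disease whose transgenes are driven by the mouse prion promoter, and no wild-type animals are part of the comparison. The tissue was a whole hippocampus, so fewer cells of a type and less RNA per cell cannot be told apart.

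Macroautophagy encloses cytoplasm in a double membrane and delivers it to lysosomes. The ULK kinase complex starts the process, the class III PI3-kinase complex around Beclin 1 marks the membrane, and ATG5 and ATG7 take part in the conjugation that attaches LC3 proteins to membrane lipid. Cargo receptors such as p62 bind both ubiquitinated cargo and LC3. The mTOR complex mTORC1 inhibits ULK1 and holds the transcription factor TFEB in the cytoplasm when nutrients are plentiful. In neurons autophagosomes form largely in axons and are carried to the cell body, and impaired clearance of autophagosomes is a known feature of brains with Alzheimer's disease. Much of this regulation acts by phosphorylation and lipid conjugation, which transcript counts do not measure.

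None of the 10 genes passed the test for a difference between RG2833 and untreated animals (edgeR quasi-likelihood test, Benjamini-Hochberg adjustment over 11791 genes, adjusted p under 0.05), where 5.08% of all tested genes did (2.41% higher and 2.67% lower in RG2833 animals). The edgeR adjusted p-values of the 10 lay between 0.157 and 0.829. An unadjusted edgeR p under 0.05 was found for 2 of the 10, Becn1 and Map1lc3a, and for 24.5% of all tested genes (11.8% higher and 12.7% lower). The values of the 2 groups overlapped in all 10 genes, whereas 7.27% of all tested genes had groups that did not overlap. The fitted log2 fold change was above 0 in 8 of the 10 and in 49.4% of all tested genes. Its median was 0.12 over the members and -0.0035 over all tested genes. With the share of ribosomal RNA as covariate the members' median was 0.058, and 6 of the 10 were above 0. That was the lowest median and the fewest above 0 of all fits tried. The median was 0.101 with the choroid plexus score (8 above 0) and 0.105 with the excitatory neuron score (7 above 0). With 1 surrogate variable it was 0.096 (9 above 0). With 1 animal left out it ran from 0.087 to 0.139, with 8 or 9 above 0.

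Log2 fold changes of the members ran from -0.25 for Map1lc3a to 0.19 for Tfeb, and their 95% intervals reached no further than -0.47 at the lower end and 0.46 at the upper end. The standard errors had a median of 0.088 over the members and 0.12 over all tested genes. These intervals come from the moderated test of each gene and are not adjusted for the number of genes.

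**Figure D1:**
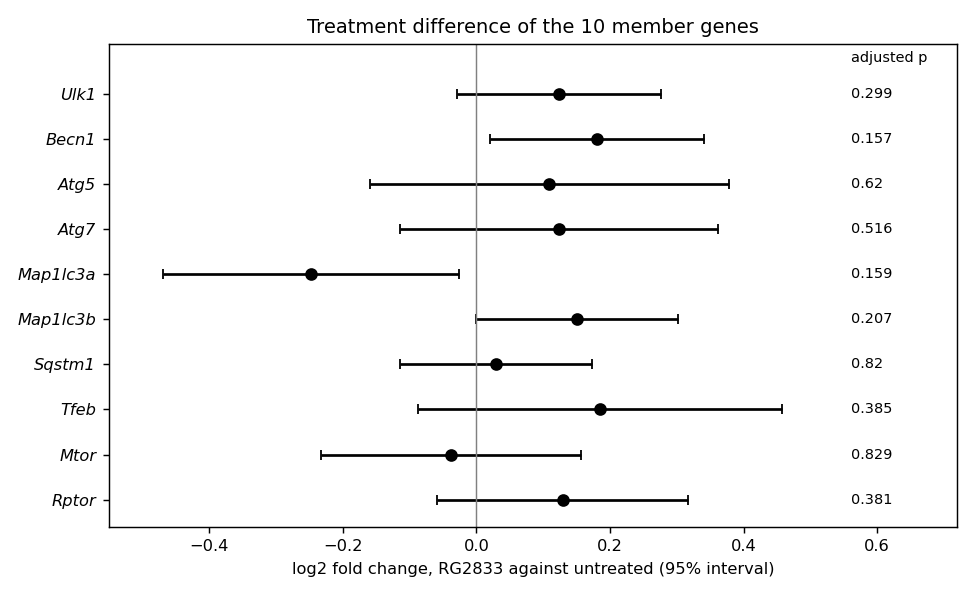
Log2 fold change of each member gene, RG2833 against untreated, as points with 95% intervals and the edgeR adjusted p at the right. The intervals of Becn1 and Map1lc3a lie on opposite sides of 0 and the other 8 include it, while all 10 adjusted p-values are at or above 0.157.

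Some properties of the libraries differed between the groups. Total estimated counts ran from 8764266 to 11311673 per animal. Ribosomal RNA (rRNA) loci took between 2.70 and 5.36% of the counts in untreated and between 1.13 and 1.96% in RG2833 animals, so this library property and the treatment cannot be told apart (exact permutation p = 0.00794, two-sided and the smallest possible with 5 against 5). Summed CPM (counts scaled to effective library size) of 5 pan-neuronal markers ran from 4253 to 6277 in untreated and from 6233 to 7513 in RG2833 animals, and that of 8 excitatory neuron markers from 4918 to 6802 and from 6925 to 7572. Fitted fold changes were above 0 for all 5 pan-neuronal and all 8 excitatory markers, with 1 of each list called, for 7 of 7 oligodendrocyte, 4 of 7 astrocyte, 1 of 6 inhibitory neuron and 1 of 8 microglia markers, and for 0 of 7 vascular and 0 of 3 tested choroid plexus markers. The pan-neuronal score was 0.34 higher on the log2 scale (exact permutation p = 0.00794, adjusted over 8 marker lists 0.0635) and the excitatory score 0.60 higher (exact permutation p = 0.0317, adjusted 0.127). For the lists of inhibitory neurons, astrocytes, microglia, oligodendrocytes, vessels and choroid plexus, adjusted exact permutation p-values were at least 0.381. In the microglia and the choroid plexus list 1 gene each was called lower, and the summed choroid plexus markers ran from 8.62 to 2408 CPM without and from 5.82 to 43.8 CPM with RG2833. None of the marker genes listed was at 0 in all animals. The part of these properties in the differences below was not tested. On the first principal component untreated replicate 4, at 11.5, lay within the RG2833 animals (9.18 to 25.3), whereas the other untreated animals lay between -27.8 and -13.8.

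Initiation is represented by Ulk1, which encodes the kinase that AMPK activates and mTORC1 inhibits. Its level in untreated replicates 1 to 5 was 83.2, 83.2, 88.9, 80.9 and 98.6 CPM. In RG2833 replicates 1 to 5 it was 96.6, 91.2, 91.4, 91.8 and 102.7 CPM. All RG2833 animals lay above the untreated mean, but untreated replicate 5 was higher than 4 of the 5 RG2833 animals, so the groups overlapped. The means were 86.9 ± 7.14 and 94.7 ± 5.02 CPM (SD, n = 5 each), a log2 fold change of 0.12 ± 0.07 (SE; by edgeR, adjusted p = 0.2995). That log2 fold change was 0.12 with the rRNA share as covariate, 0.13 with the excitatory neuron score and 0.20 with 1 surrogate variable.

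Becn1 encodes Beclin 1, the scaffold of the class III PI3-kinase complexes. It measured 177, 159, 175, 186 and 150.1 CPM in untreated replicates 1 to 5. The RG2833 replicates gave 193, 197, 205, 180 and 184 CPM. In the RG2833 group 3 of 5 animals were above the highest untreated animal, replicate 4, and all 5 were above the untreated mean. Becn1 had the smallest p-value of the 10 genes, with means of 169 ± 14.4 and 192 ± 9.97 CPM (SD, n = 5 each) and a log2 fold change of 0.18 ± 0.07 (SE; by edgeR, adjusted p = 0.157), or 13.3% higher with a 95% interval of 1.40 to 26.6%. Its log2 fold change was 0.11 with the rRNA share as covariate, 0.12 with the excitatory neuron score and 0.093 with 1 surrogate variable. Becn1 was also the only member whose deposited counts were not whole numbers, in all 10 samples, as the estimation gives where reads are shared between loci. Among tested genes, 82.5% had whole counts in all samples (within 1e-09 of a whole number).

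Atg5 and Atg7 act in the conjugation machinery: ATG7 is its E1-like enzyme, and ATG5, joined to ATG12, forms part of the E3-like complex. Atg5 measured 31.3, 21.8, 25.1, 22.2 and 23.9 CPM in untreated replicates and 27.3, 33.2, 24.4, 23.2 and 25.7 CPM in RG2833 replicates 1 to 5. The highest value of each group stood above the rest, untreated replicate 1 and RG2833 replicate 2, and the remaining values intermingled (log2 fold change 0.11 ± 0.12, SE; by edgeR, adjusted p = 0.6199). Atg7 measured 14.2, 13.4, 18.7, 18.1 and 16.8 CPM in untreated and 17.1, 16.7, 17.6, 17.6 and 19.7 CPM in RG2833 replicates. Here the RG2833 animals lay closer together, with an SD of 1.16 against 2.35 CPM, and the 2 lowest animals were untreated replicates 1 and 2 (log2 fold change 0.12 ± 0.11, SE; by edgeR, adjusted p = 0.516). With the rRNA share as covariate the log2 fold changes were 0.19 for Atg5 and 0.0036 for Atg7, and with the excitatory neuron score 0.29 and -0.050. Single animals also moved them: Atg5 was 0.20 without untreated replicate 1, 0.066 and 0.071 without untreated replicates 2 and 4, and 0.019 without RG2833 replicate 2. Atg7 was 0.080 and 0.061 without untreated replicates 1 and 2.

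Promoter sequence of the members was looked up in the RefSeq table of build GRCr8, which holds 7 of the 10 genes and lacks Becn1, Map1lc3a and Rptor. The 250 bases before each gene's start were searched on both strands for the E-box CACGTG, the core of the element that TFEB binds, for the GC box GGGCGG and for TATAAA. The E-box was found in 1 of the 7 members, Atg5, against 5.59% of all 33469 promoters and 8 of 87 other pathway genes. GC boxes were found in 5 of the 7, against 30.5% of all promoters and 62.1% of the other pathway genes, and TATAAA in 1, Sqstm1, against 12.9%. The last 100 bases before the start are shown for Atg5 and Sqstm1, the only members with an E-box or a TATAAA, with matches in capitals (read 5′ to 3′ on the strand of the gene).
Atg5: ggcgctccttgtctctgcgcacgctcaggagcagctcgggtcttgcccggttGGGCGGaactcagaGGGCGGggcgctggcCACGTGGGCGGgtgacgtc
Sqstm1: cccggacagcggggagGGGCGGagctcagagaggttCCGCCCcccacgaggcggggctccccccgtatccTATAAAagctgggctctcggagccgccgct
The Atg5 stretch is chr20:49380735-49380834 on the plus strand, and its E-box begins at -19 and shares its last base with a GC box that begins at -14. The Sqstm1 stretch is chr10:35037751-35037850 on the minus strand, with TATAAA beginning at -30. A match describes these letters only. The level of neither gene differed detectably between the groups.

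The LC3 proteins are the ubiquitin-like tags of the autophagosome membrane. Map1lc3a, which encodes LC3A, measured 217, 197, 208, 181 and 146 CPM in untreated replicates 1 to 5. In RG2833 replicates it was 172, 169, 148, 162 and 148 CPM. Untreated replicates 1 to 4 all lay above every RG2833 animal, and untreated replicate 5 was the lowest of all 10. The means were 190 ± 28.1 and 160 ± 11.4 CPM (SD, n = 5 each), a log2 fold change of -0.25 ± 0.10 (SE; by edgeR, adjusted p = 0.159), or -15.8% with a 95% interval of -27.8 to -1.82%. Map1lc3a was the only member called in any of the 23 other fits tried: without untreated replicate 5 its log2 fold change was -0.33 (edgeR, adjusted p = 0.0307). That fit called 902 of 11852 tested genes, where the main test called 599 of 11791. Over the 23 fits the adjusted p of Map1lc3a ran from 0.0307 to 0.99996. With the rRNA share as covariate its log2 fold change was -0.0031, and with the excitatory neuron score -0.066.

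Map1lc3b encodes LC3B, and its fitted fold change had the opposite sign. Its level in untreated replicates 1 to 5 was 438, 383, 411, 384 and 370 CPM. The RG2833 replicates gave 453, 439.7, 409, 463 and 440.2 CPM. In the RG2833 group 4 of 5 animals lay above every untreated animal, and RG2833 replicate 3 lay below untreated replicates 1 and 3. The means were 397 ± 27.3 and 441 ± 20.3 CPM (SD, n = 5 each), a log2 fold change of 0.15 ± 0.07 (SE; by edgeR, adjusted p = 0.207). Its log2 fold change was 0.19 with the rRNA share as covariate and 0.26 with the excitatory neuron score, and did not pass in either fit.

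Neither LC3 gene passed the test, but their fitted fold changes had opposite signs, and their ratio was taken within each animal, where library scaling cancels. This ratio was chosen after the values were seen. The Map1lc3a count divided by the Map1lc3b count was 0.497, 0.515, 0.506, 0.471 and 0.395 in untreated replicates 1 to 5. It was 0.381, 0.384, 0.363, 0.3505 and 0.336 in RG2833 replicates. Every RG2833 animal lay below every untreated animal, with untreated replicate 5 the nearest to the RG2833 range. The means were 0.477 ± 0.0486 and 0.363 ± 0.0203 (SD, n = 5 each). Among all 45 pairs of the 10 members, 3 pairs had log2 ratios that did not overlap between the groups: Map1lc3a with Map1lc3b, Map1lc3a with Becn1, and Ulk1 with Mtor. For single genes the share was 7.27% of all tested genes, and the share over pairs of all tested genes was not computed. Each of the 3 pairs has the smallest p that 5 against 5 allows (exact permutation p = 0.00794, two-sided), which restates that the groups did not overlap. After Benjamini-Hochberg adjustment that p was 0.119, and at least 8 of the 45 pairs would have had to reach it for any to pass, so the adjusted test could say little here.

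**Figure D2:**
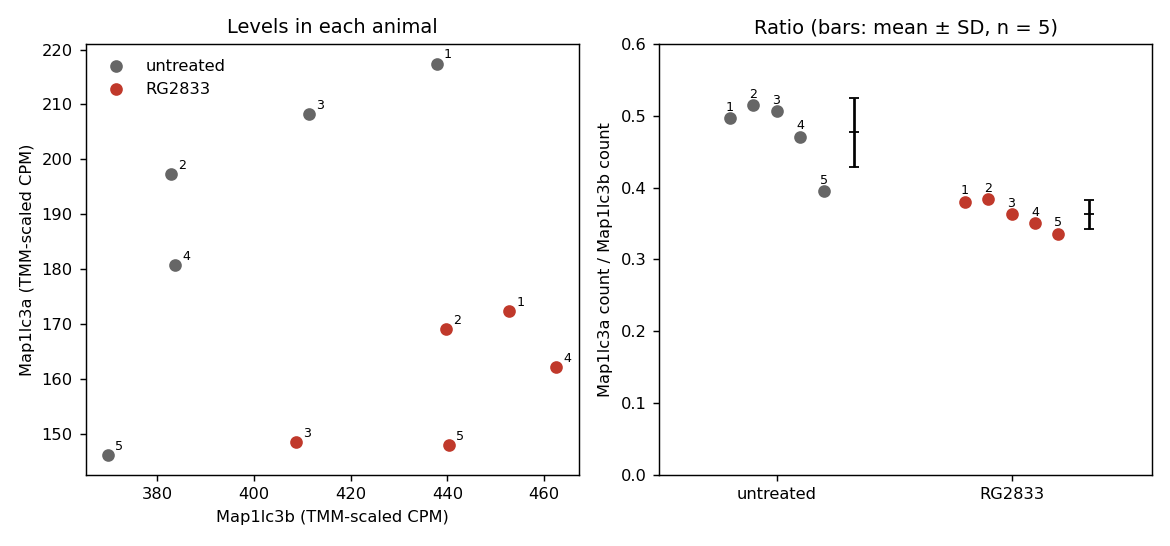
Left, TMM-scaled CPM of Map1lc3a against Map1lc3b in each animal, with replicate numbers. Right, the ratio of their counts with mean ± SD (n = 5), where all RG2833 animals lie at or below 0.384 and all untreated animals at or above 0.395.

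The other 3 genes of the LC3 and GABARAP family, Gabarap, Gabarapl1 and Gabarapl2, encode LC3-related tags of the same membranes. All 3 had fold changes below 0 and none passed, where 5.08% of all tested genes did. Gabarapl2 was 251 ± 21.5 CPM without and 211 ± 15.2 CPM with RG2833 (SD, n = 5 each), a log2 fold change of -0.25 ± 0.08 (SE; by edgeR, adjusted p = 0.0817). It ranged from 227 to 276 CPM without and from 190.1 to 229 CPM with RG2833, a narrow overlap. Its log2 fold change was -0.11 with the rRNA share as covariate and -0.076 with the excitatory neuron score. Gabarapl1 did not overlap between the groups, with 613 to 719 CPM without and 549.6 to 608 CPM with RG2833 (log2 fold change -0.20 ± 0.07, SE; by edgeR, adjusted p = 0.113). Map1lc3b was thus the only gene of this family of 5 with a fold change above 0. Whether it differs from its relatives as a group was not tested.

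Sqstm1 encodes p62, a cargo receptor that is itself degraded by autophagy. It measured 690 CPM in untreated replicate 1 and 596, 629, 621 and 620 CPM in replicates 2 to 5. The RG2833 replicates 1 to 4 measured 662, 654, 654 and 650.3 CPM and replicate 5 measured 602 CPM. The highest and the lowest of the 10 values were both untreated, and the RG2833 values lay inside the untreated range. The log2 fold change was 0.03 ± 0.07 (SE; by edgeR, adjusted p = 0.82002), a change of 2.07% with a 95% interval of -7.61 to 12.8%. The log2 fold change was -0.015 with the rRNA share as covariate and 0.093 with the excitatory neuron score, and ran from 0.0097 without untreated replicate 2 to 0.064 without untreated replicate 1. Sqstm1 was the steadiest member within groups, with an SD of 5.61% of the mean in untreated and 3.71% in RG2833 animals.

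Tfeb encodes a transcription factor of lysosomal and autophagy genes and was counted from 117 to 194 reads per animal, the fewest along with Atg7 at 124 to 202. Its level was 15.8, 12.8, 10.8, 14.7 and 13.6 CPM in untreated and 13.4, 17.3, 14.4, 17.8 and 14.1 CPM in RG2833 replicates 1 to 5. RG2833 replicates 2 and 4 were the 2 highest animals and the other 3 lay within the untreated range. Tfeb had the largest standard error of the members, with a log2 fold change of 0.19 ± 0.13 ( SE; by edgeR, adjusted p = 0.385). It was 0.11 without untreated replicate 3 and 0.12 without RG2833 replicate 4. With the rRNA share as covariate it was -0.064, and with the excitatory neuron score 0.18.

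Mtor encodes the kinase shared by both mTOR complexes, and Rptor encodes Raptor, the subunit that defines mTORC1 and recruits its substrates. Mtor measured 99.0, 103, 113, 101 and 136 CPM in untreated replicates 1 to 5. The RG2833 replicates gave 113, 101, 107, 103 and 114 CPM. Apart from untreated replicate 5, all animals lay in one narrow band (log2 fold change -0.04 ± 0.09, SE; by edgeR, adjusted p = 0.829). Without that animal the log2 fold change was 0.049, and with 1 surrogate variable 0.070, so the direction for Mtor depended on these choices. Rptor measured 66.2, 75.8, 83.2, 74.8 and 91.9 CPM in untreated and 82.4, 81.9, 81.8, 89.9 and 92.9 CPM in RG2833 replicates. All 5 RG2833 animals were above the untreated mean of 78.4 CPM, but untreated replicates 3 and 5 lay among them (log2 fold change 0.13 ± 0.09, SE; by edgeR, adjusted p = 0.381). The Rptor log2 fold change was 0.076 with the excitatory neuron score as covariate, 0.145 with the rRNA share and 0.075 without untreated replicate 1. Untreated replicate 5 was the highest untreated animal for Ulk1, Mtor and Rptor and the lowest for Becn1, Map1lc3a and Map1lc3b.

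**Figure D3:**
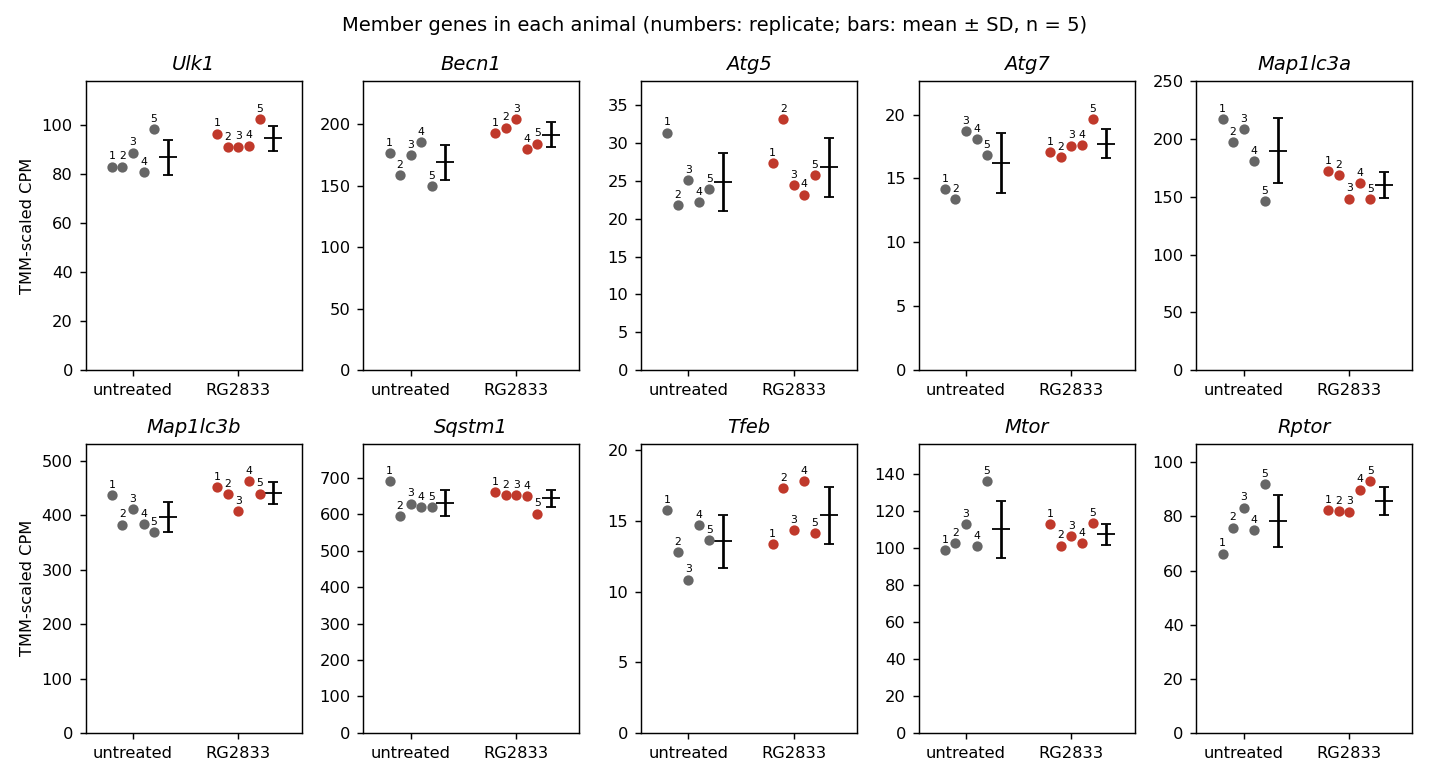
TMM-scaled CPM of each member gene in each animal (y axes start at 0), grey for untreated and red for RG2833, with replicate numbers and mean ± SD (n = 5) at the right of each group. The groups overlap in all 10 panels, and untreated replicate 5 is the highest untreated animal for Ulk1, Mtor and Rptor and the lowest for Becn1, Map1lc3a and Map1lc3b.

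The SD between animals, as a percentage of the mean, was larger in the untreated group for all 10 members, with the widest gaps for Mtor (14.0 against 5.32%), Map1lc3a (14.8 against 7.10%) and Atg7 (14.5 against 6.52%). For Atg5 (15.6 against 14.6%) and Tfeb (13.9 against 13.1%) the groups were close. The share of all tested genes with a larger untreated SD was not computed. For every cell type list, the SD of the marker score was also larger in the untreated group. It was 0.399 against 0.135 for excitatory neurons and 0.651 against 0.212 for oligodendrocytes. The wider untreated spread was thus not limited to the members, and this difference in spread was not tested.

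The wider pathway was described with a list of 97 other genes, of which 91 were in the table and 89 passed the filter on low counts (Rubcn, Atg2b, Deptor, Rictor, Telo2 and Rragb were not analysed here, and Atg9b and Tfec were below the filter). Of the 89, 4 were called, 2 in each direction, which is 4.49%, near the 5.08% of all tested genes. An unadjusted edgeR p under 0.05 was found for 25 of the 89 (28.1%, against 24.5% of all tested genes), 17 with fold changes above 0 and 8 below. Groups did not overlap for 6 of the 89, where 7.27% of all tested genes had such groups: Atg9a, Slc38a9, Akt1s1, Fundc1 and, both named after their values were seen, Mapkap1 and Gabarapl1. The median log2 fold change of the 89 was 0.03, with a range from -0.47 to 0.72.

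Among upstream autophagy genes, Atg9a was called. Atg9a encodes ATG9A, a lipid scramblase in the vesicles that seed the autophagosome membrane. It measured 178, 177, 196, 211 and 215 CPM in untreated and 256, 243, 243, 245 and 257 CPM in RG2833 replicates 1 to 5. Every RG2833 animal was above every untreated animal, with means of 196 ± 17.9 and 249 ± 7.09 CPM (SD, n = 5 each) and a log2 fold change of 0.35 ± 0.07 (SE; by edgeR, adjusted p = 0.0257). It stayed called in 3 of the 10 fits that left out 1 animal (without untreated replicate 2, 4 or 5), its log2 fold change running from 0.31 to 0.38. With the replicate number as a block the log2 fold change was 0.35 (edgeR, adjusted p = 0.0614). It was 0.25 with the rRNA share as covariate (edgeR, adjusted p = 0.99992) and 0.22 with the excitatory neuron score (edgeR, adjusted p = 0.782). The other 7 tested genes of the ATG2, ATG9 and WIPI proteins did not pass.

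Of the ULK kinase complex, all 4 tested genes besides Ulk1 had fold changes above 0 and none was called. Over all tested genes, 49.4% had fold changes above 0 and 5.08% were called. The smallest p was that of Atg13, a regulatory subunit, at 71.2 ± 9.72 and 88.2 ± 6.42 CPM (SD, n = 5 each; log2 fold change 0.31 ± 0.10, SE; by edgeR, adjusted p = 0.0793). Its log2 fold change was 0.088 with the excitatory neuron score as covariate and 0.23 with the rRNA share. Among 6 tested genes of the class III PI3-kinase complexes besides Becn1, none was called, and Ambra1, which encodes a Beclin 1 regulator, had the smallest p (log2 fold change 0.16 ± 0.07, SE; by edgeR, adjusted p = 0.148). For Ambra1 it was 0.060 with the rRNA share as covariate and 0.082 with the excitatory neuron score. None of 9 conjugation genes besides Atg5 and Atg7 reached an unadjusted edgeR p under 0.05. Their log2 fold changes lay between -0.16 and 0.19, the smallest p being that of Atg4a, listed under its synonym Atg4al1 (-0.16 ± 0.13, SE; by edgeR, adjusted p = 0.493; -0.030 with the rRNA share as covariate and -0.27 with the excitatory neuron score). Of 10 cargo receptor genes besides Sqstm1, 0 were called, where 5.08% of all tested genes were. An unadjusted edgeR p under 0.05 was found for 4 of the 10, 3 higher and 1 lower, against 24.5% of all tested genes. The 1 lower, Fundc1, a mitophagy receptor gene, did not overlap between the groups, with 30.5 to 34.4 CPM without and 25.4 to 29.8 CPM with RG2833 (log2 fold change -0.20 ± 0.07, SE; by edgeR, adjusted p = 0.116). Its log2 fold change was -0.12 with the rRNA share as covariate and -0.18 with the excitatory neuron score. Tfe3, a relative of Tfeb, had a log2 fold change of 0.16 ± 0.07 (SE; by edgeR, adjusted p = 0.174). With the rRNA share as covariate it was 0.0018, and with the excitatory neuron score 0.15.

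Of 6 tested mTOR complex subunits besides Mtor and Rptor, 0 were called, where 5.08% of all tested genes were, and 5 had fold changes above 0. An unadjusted edgeR p under 0.05 was found for 3 of the 6, all higher, against 24.5% of all tested genes. Groups did not overlap for 2 of the 6, against 7.27% of all tested genes. Akt1s1, which encodes the mTORC1 inhibitor PRAS40, did not overlap between the groups, at 57.8 to 66.7 CPM without and 69.1 to 74.3 CPM with RG2833. Its log2 fold change was 0.22 ± 0.06 (SE; by edgeR, adjusted p = 0.0634), 0.37 with the rRNA share as covariate and 0.25 with the excitatory neuron score. DESeq2's Wald test called 1295 of 11791 genes, where the main test called 599. With the Wald test Akt1s1 passed (adjusted p = 0.0225), as did Atg13 (adjusted p = 0.0435) and Gabarapl2 (adjusted p = 0.0250). Without untreated replicate 5, where 902 of 11852 genes were called, Atg13 also passed in edgeR (0.36 on the log2 scale, adjusted p = 0.0421). Gabarapl2 passed without untreated replicate 4 (-0.28; edgeR, adjusted p = 0.0437), where 1556 of 11849 genes were called.

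Among inputs to mTORC1, 2 of 19 tested genes for amino acid inputs and 1 of 12 for growth factor and energy inputs were called, where 5.08% of all tested genes were. Slc38a9, a lysosomal arginine sensor gene, measured 2.06, 3.80, 2.41, 2.61 and 3.60 CPM in untreated and 4.96, 4.37, 4.96, 5.07 and 4.603 CPM in RG2833 replicates. It rose by a log2 fold change of 0.72 ± 0.19 (SE; by edgeR, adjusted p = 0.0449), with no overlap between the groups. Lamtor5, a gene of the Ragulator complex that anchors Rag GTPases to lysosomes, fell from 33.6 ± 4.24 to 25.6 ± 2.29 CPM (SD, n = 5 each), a log2 fold change of -0.39 ± 0.10 (SE; by edgeR, adjusted p = 0.0484). Untreated replicate 5, at 26.5 CPM, lay among the RG2833 animals, which ran from 22.02 to 27.6 CPM. Stk11, which encodes LKB1, the kinase upstream of AMPK, fell from 156 ± 21.2 to 120 ± 8.65 CPM (SD, n = 5 each), a log2 fold change of -0.38 ± 0.10 (SE; by edgeR, adjusted p = 0.0417). Its lowest untreated value was 131.9 CPM in replicate 5, and the highest RG2833 value, in replicate 1, was equal to it at this rounding.

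These calls were close to the threshold. Slc38a9 was not called with library totals only (edgeR, adjusted p = 0.0546) or with no filter on low counts (edgeR, adjusted p = 0.0558). It had few reads, 386 counts summed over the 10 animals, and a filter of a mean count of at least 50 removed it. Lamtor5 was not called with no filter (edgeR, adjusted p = 0.0554), with limma-voom (adjusted p = 0.0550) or with limma trend on the deposited signal (limma, adjusted p = 0.0522 to 0.0525). With 1 animal left out, Slc38a9 stayed called in 3 of the 10 fits (without untreated replicate 2, 4 or 5), and Lamtor5 and Stk11 in 2 (without untreated replicate 4 or 5). With the rRNA share as covariate, log2 fold changes were 0.88 for Slc38a9, -0.20 for Lamtor5 and -0.054 for Stk11, and none passed. With the excitatory neuron score they were 0.70, -0.26 and -0.13, and none passed. Of the 19 genes for amino acid inputs, 7 had fold changes above 0 and 12 below, and of the 12 for growth factor and energy inputs, 8 and 4. None of 10 substrates and effectors of mTORC1 was called, where 5.08% of all tested genes were. An unadjusted edgeR p under 0.05 was found for 4 of these 10, 2 higher and 2 lower, against 24.5% of all tested genes. Eif4ebp2, a gene for a translational repressor that mTORC1 phosphorylates, had the smallest p of the 10 (log2 fold change 0.41 ± 0.14, SE; by edgeR, adjusted p = 0.0961). Its log2 fold change was 0.19 with the excitatory neuron score as covariate and 0.42 with the rRNA share.

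**Figure D4:**
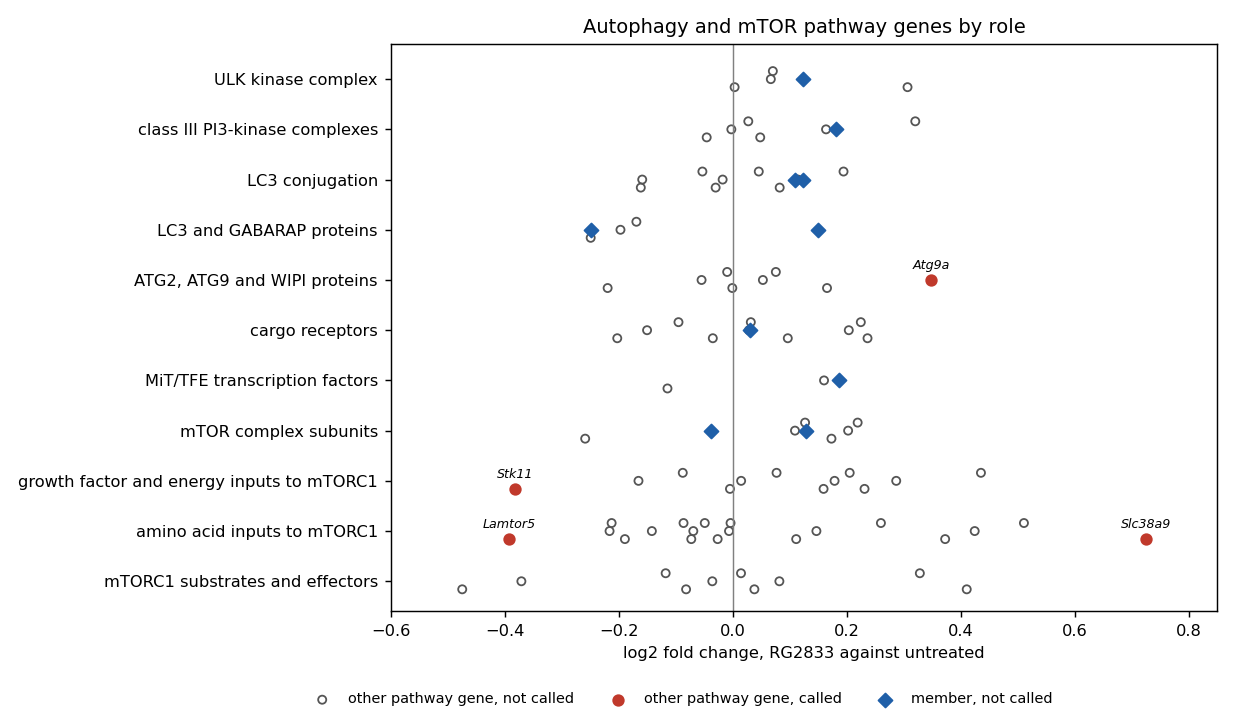
Log2 fold change, RG2833 against untreated, of the 10 member genes (blue diamonds) and the 89 other tested pathway genes (circles), in rows by role, with called genes filled in red and named. The members lie between -0.25 and 0.19, and the 4 called genes are Atg9a and Slc38a9 above 0 and Stk11 and Lamtor5 below.

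For the 3 members with the smallest p-values, the genes with the most similar profiles over the 10 animals were found by the mean absolute difference of log2 CPM after centring each gene on its own mean. Nearest to Becn1 were Slc39a7 (0.034), Gramd1a (0.045) and Abhd6 (0.045), where the median distance of all genes was 0.196. For Map1lc3a they were Atp5h (0.032), LOC100911483 (0.039) and Cox5b (0.040), with a median of 0.235. For Map1lc3b they were Rbmxrtl (0.035), Preb (0.036) and Tubg1 (0.038), with a median of 0.190. Atp5h and Cox5b encode subunits of ATP synthase and cytochrome c oxidase. None of the 9 genes was called, their edgeR adjusted p-values lying between 0.0675 and 0.340.

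The members' fold changes were compared over 23 other fits each. Ulk1, Becn1, Atg5, Map1lc3a, Map1lc3b and Rptor kept their direction in all of them. Values of Atg7, Sqstm1, Tfeb and Mtor lay on both sides of 0. Becn1 ran from 0.09 to 0.22, Rptor from 0.07 to 0.21 and Map1lc3b from 0.13 to 0.26, whereas Atg5 ran from 0.02 to 0.29.

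**Figure D5:**
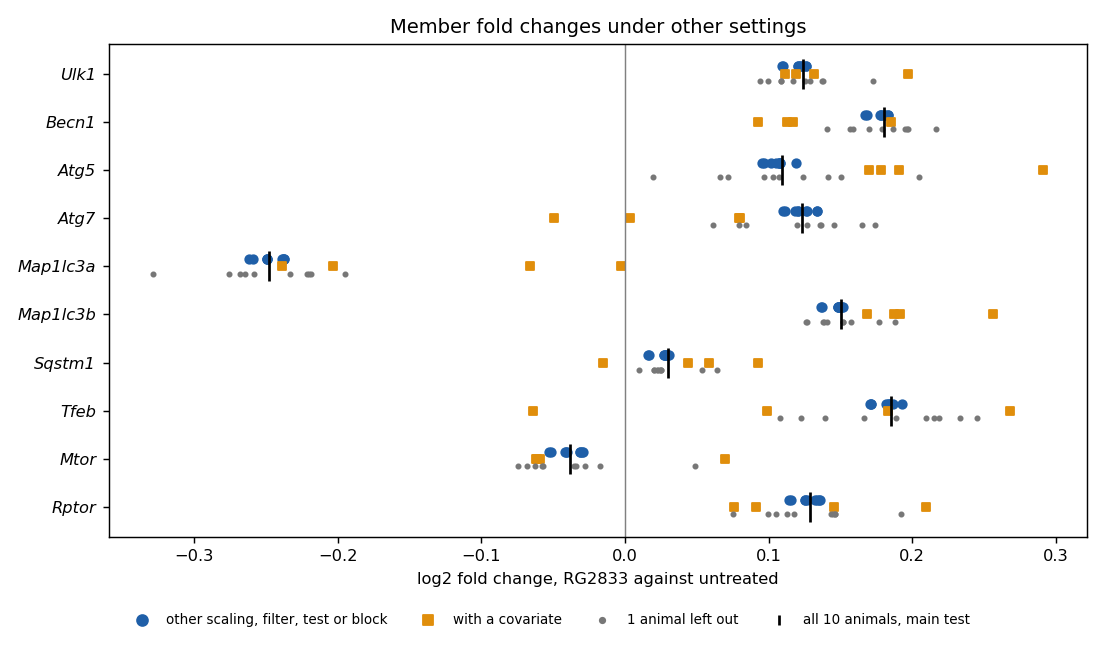
Log2 fold change of each member gene under all fits, with the main test as a black bar, other scalings, filters, tests and the block in blue, covariates in orange and fits that left out 1 animal in grey. Map1lc3a runs from -0.33 to -0.0031, and the points of Atg7, Sqstm1, Tfeb and Mtor lie on both sides of 0.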

How the data were processed

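Strand-specific mRNA libraries of 10 left hippocampi were sequenced. The authors deposited RSEM expected counts and, in a second table, a normalized signal on the CPM scale with TMM factors. The submitters' processing notes name bcl2fastq 2.17, Bowtie2 2.1.0, RSEM 1.2.15, edgeR and the build rn6. Read assignment between similar genes follows RSEM's estimate.

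Expected counts were rounded and filtered with filterByExpr by group. Groups were compared over all 10 samples by the quasi-likelihood test of edgeR 4.0.16 under R 4.3.3, with TMM factors, no covariates, Benjamini-Hochberg adjustment over 11791 genes and a threshold of 0.05. CPM printed is that of the tested genes, and for the members it was 0.995 to 1.01 times the deposited signal. Log2 CPM used a prior count of 2. A count of 3 corresponded to 0.268 to 0.343 CPM and covers counting error only. Alternatives used DESeq2 1.42.0, limma 3.58.1 and sva 3.50.0. The test scripts were also run on simulated counts, whose results are not given. Across 20 within-group pairs of libraries the chi-square per degree of freedom was at least 4.72, so none was a duplicate within sampling noise.

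The members and lists were chosen with earlier results of these data known. Genes named besides the members were those of the list that were called and the gene with the smallest p in each role, other genes being marked as chosen later. List genes were matched by symbol or by a RefSeq synonym (table of build GRCr8). The labels name each sample as a separate rat and give no litter or batch, and p-values measure only the spread between these samples.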

Additional observations from a re-analysis of the deposited data

Results flagged for a closer look

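Values of the 10 members, of 12 other named pathway genes and of the ribosomal RNA share were checked within each treatment group for a sample far from the other 4, by the gap to its neighbour over the group's range (Dixon's limit of 0.71). Of the 46 groups of 5 so checked, 1 exceeded the limit, and about 2.3 would by chance. In Sqstm1, RG2833 replicate 5 stood at 602 CPM against 650.3 to 662 CPM in the other 4 RG2833 animals, a ratio of 0.810. That value lies inside the untreated range of 596 to 690 CPM.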

How the results depend on the processing

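No member was called in the main test or in the other fits, except for 1 (Map1lc3a) without untreated replicate 5, so the number called ran from 0 to 1 with 1 animal left out. Without untreated replicate 5, 902 of 11852 tested genes were called. Directions turned for Atg7 (-0.050 with the excitatory neuron score as a covariate), Sqstm1 (-0.015) and Tfeb (-0.064, both with the rRNA share as covariate), and Mtor (0.070 with 1 surrogate variable and, with 1 animal left out, -0.074 to 0.049, the highest without untreated replicate 5). The cause was not tested.

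Over all genes, the 599 calls became 1295 with DESeq2's Wald test, 137 with the choroid plexus score, 5 with the excitatory neuron score, 5 with 1 surrogate variable, 2 with the ribosomal RNA share and 1466 at an adjusted p under 0.1. With 1 animal left out they ran from 98 (without RG2833 replicate 5) to 1556 (without untreated replicate 4). Of the 599, 284 were higher, and with library totals only 228 of 595 were. The 4 calls among other pathway genes became 2 with no filter on low counts, 9 with the Wald test, 10 at an adjusted p under 0.1 and 0 with each of the 4 covariates. With 1 animal left out they ran from 0 to 9, with 9 without untreated replicate 4, 7 without untreated replicate 5, 2 without untreated replicate 2 and 0 in the other 7 fits.

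Both groups carry replicate numbers 1 to 5, which name different animals. Deviations of same-numbered samples correlated between -0.319 and 0.151, and 1 of 5 correlated best with its own number, so the numbers were not used as pairs. With the replicate block, 180 genes, 0 members and 0 other pathway genes were called. Tfeb and Atg7, with the fewest reads, had among the widest intervals.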
